A study of Caenorhabditis elegans with 2 samples.

Results

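The vulval induction and lateral signalling genes of *Caenorhabditis elegans* form a set of 10 genes chosen by name: *lin-3*, *let-23*, *lin-2*, *lin-7*, *lin-10*, *lin-12*, *lag-2*, *lin-1*, *lin-31* and *lin-39*. All 10 names matched 1 protein-coding gene each, out of 19973 in the Ensembl 115 annotation of WBcel235, the assembly also called ce11. Regions were taken where the summit lay in the gene or within 5 kb of it. This gave 51 of the 30000 candidate regions called on the pooled reads, and 1 of the 1917 regions that the authors list as optimal. The data are chromatin immunoprecipitation sequencing (ChIP-seq) of LIN-11, a LIM homeodomain transcription factor. There is 1 group of 2 biological replicates and no second condition, so no test between groups exists and the results are a description.

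Both replicates were whole L2 larvae, with male and female animals pooled per the labels, of strain OP62. Its genotype is given as *unc-119(ed3)* III with the insertion *wgIs62*, which supplies LIN-11 tagged at its C terminus with GFP and FLAG. Replicate 1 is labelled as sonicated and replicate 2 with a size range of 150 to 350. Whole animals mix all tissues, so fewer bound cells and weaker binding per cell cannot be told apart. The depth behind each value is unknown, since the lists hold no read numbers.

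The vulva forms from epidermal precursor cells that receive an epidermal growth factor signal from the anchor cell of the gonad. The signal acts through a receptor tyrosine kinase and the Ras cascade, and lateral signalling through Notch gives neighbouring precursor cells a different fate. Notch signalling also decides which gonadal cell becomes the anchor cell, around the stage sampled here, while vulval induction itself takes place mainly afterwards. LIN-11 is known for its role in the descendants of induced cells and in several neurons.

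The only optimal region of the set lay between *lin-7* and its neighbour *elof-1*, and its sequence is shown because it carries the one strong signal. *lin-7* (WBGene00002996, chrII:14345844-14349406, minus strand) encodes a PDZ protein that helps to hold the receptor LET-23 on the basolateral membrane. The deposited region covers chrII:14349646-14349750. Capitals mark a pair of arms of 10 bases, each the reverse complement of the other, with 36 bases between them. They were chosen after the sequence was seen. The bases are those of the plus strand of the RefSeq copy of WBcel235.

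lin-7 and elof-1, optimal region: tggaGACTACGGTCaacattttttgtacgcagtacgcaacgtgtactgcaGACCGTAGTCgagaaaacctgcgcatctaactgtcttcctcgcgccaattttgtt

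Arms of at least 10 bases with a gap of at most 60 were present within 50 bp of 2.45% of all optimal summits and 2.42% of the other pooled candidates, so strong and weak regions held such arms at about the same share. None of the 6 short motifs searched was in the deposited region, on either strand. They were TAATTA, the core that LIM homeodomain proteins bind, the wider TAATNA, which contains it, TGATNNAT of Hox proteins with a partner, TGGGAA of the Notch effector LAG-1, CCGGAA of ETS proteins and GAGAG.

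Of the other 50 candidates, 22 hold at least 1 of the motifs, and 4 of these, chosen after their values were seen, are shown as examples. The 2 with TAATTA lie at chrII:14348161-14348261 in intron 1 of the longest *lin-7* transcript and at chrIII:7535409-7535509 in *lin-39*. The other 2 were matched in both replicates, and lie at chrX:12405041-12405141 in intron 12 of the longest *lin-2* transcript and at chrII:3982387-3982487 before the start of *lin-31*. A further candidate matched in both replicates and holding a motif, CCGGAA, lies in a coding exon of the neighbour *agl-1* and is not shown. Each run is the summit base and 50 bases on each side of it, on the plus strand, with motif matches in capitals. In *lin-39* the second run of capitals is TGATNNAT on the minus strand, and in *lin-31* the capitals are TAATNA on the minus strand.

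lin-7, intron: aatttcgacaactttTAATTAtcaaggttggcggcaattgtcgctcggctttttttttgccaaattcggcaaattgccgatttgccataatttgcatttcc
lin-39, upstream of an internal start: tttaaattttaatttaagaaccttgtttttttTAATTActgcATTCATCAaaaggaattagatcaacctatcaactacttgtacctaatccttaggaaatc
lin-2, intron: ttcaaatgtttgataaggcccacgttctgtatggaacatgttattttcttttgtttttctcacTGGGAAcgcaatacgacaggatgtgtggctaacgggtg
lin-31, promoter: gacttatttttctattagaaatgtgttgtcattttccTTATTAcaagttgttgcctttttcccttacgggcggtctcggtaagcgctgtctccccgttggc

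A match is a description of the letters and not a binding site. Over the 51 candidates at these genes TAATTA was within 50 bp of 2 summits (3.92%), against 2.39% of all pooled candidates and 1.04% of all optimal regions. TAATNA was near 9 (17.6%), against 13.3% of pooled candidates and 5.22% of optimal regions. GAGAG, frequent in optimal regions at 47.1%, was near 8 of the 51 (15.7%), against 21.1% of pooled candidates. TGATNNAT and TGGGAA were near 3 each (5.88%), against 5.49% and 6.09% of pooled candidates, and CCGGAA near 6 (11.8%), against 6.20%. The Wilson 95% intervals of the 51 candidates contained the pooled share for each of the 6 motifs. They were wide, at 1.08 to 13.2% for TAATTA and 8.17 to 28.0% for GAGAG. The median GC content around the summit was 43.6% for the 51 candidates, against 44.6% for all pooled candidates and 50.5% for optimal regions.

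The share of these genes with an optimal region was not distinguishable from that of all protein-coding genes. Of the 10 genes, 1 had an optimal summit in the gene or within 5 kb (10%, Wilson 95% interval 1.79 to 40.4%), against 23.3% of all protein-coding genes. The members are longer than most genes, with a median of 9516 bp against 2027 bp. Among the 11271 protein-coding genes within the members' range of length, 26.5% had such a summit. With so few genes the interval contains both shares, so a difference from other genes was not detectable. The promoter window of a gene begins 1000 bp before each of its transcript starts and ends 200 bp after it. In this window 1 of the 10 had an optimal summit, against 8.39% of all protein-coding genes. Inside the gene itself none of the 10 had one, against 2.25%.

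Each of the 10 genes had pooled candidates in its window, between 3 and 8 per gene. Most genes have them: 91.0% of all protein-coding genes, and 93.8% of those within the members' range of length. The median count per gene was 4.5 for the members, against 3 and 4 in those sets. Of the 51 candidates, 50 were weak. Signal is the authors' own value per region and its scaling is not stated, so it is compared only within a list. The 50 candidates that are not optimal ran from 5.54 to 18.82. They lie under the lowest optimal signal of 27.84 by construction, since the optimal regions are the top of the pooled list by signal. Their deposited −log10 q-values ran from 0.194 to 1.87, against 3.54 for the optimal region. The pooled list includes background, so a candidate is not by itself a bound region. Of the 51, 1 was optimal (1.96%), against 6.39% of all pooled candidates. This direction rests on the window: within 10 kb the share was 7 of 83 (8.43%), above that of all pooled candidates. Their median signal was 7.35, against 8.51 for all pooled candidates. Candidates were spaced at 2.59 per 10 kb of window, against 3.03 for windows of all protein-coding genes.

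**Figure D1:**
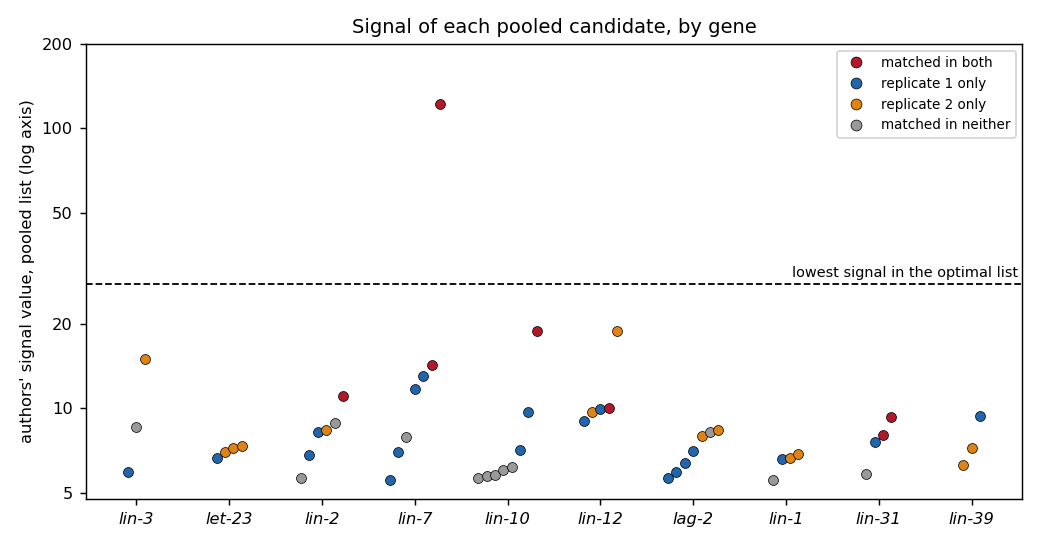
Signal of the 51 pooled candidates on a log axis by gene, 1 point per region, coloured by the replicate lists with a summit within 100 bp; the dashed line is the lowest signal of the optimal list, 27.84. The *lin-7* region at 122.1 stands alone above the line, and the next highest points are 18.82 at *lin-10* and 18.80 at *lin-12*.

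The share of candidates at these genes matched in both replicates was not distinguishable from that of all pooled candidates. A replicate candidate within 100 bp was present in both lists for 7 of the 51 (13.7%, Wilson 95% interval 6.81 to 25.7%). The share was 25.0% for all pooled candidates, which the interval contains, and 91.4% for optimal regions. A match was present in replicate 1 only for 19 (37.3%, against 27.7% of all pooled candidates), in replicate 2 only for 13 (25.5%, against 31.4%) and in neither for 12 (23.5%, against 15.9%). A match is of summits, so a candidate without one can still overlap a replicate region. Among the 50 that are not optimal, 6 were matched in both lists. The Wilson 95% interval of that share, 5.62 to 23.8%, contained the 20.5% of all candidates that are not optimal. The 7 shared candidates lay at 5 genes: 2 each at *lin-7* and *lin-31* and 1 each at *lin-2*, *lin-10* and *lin-12*. The remaining 5 genes, *lin-3*, *let-23*, *lag-2*, *lin-1* and *lin-39*, had no candidate matched in both lists.

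Most candidates in these windows had another gene's transcript start as their nearest. The same count was not made for the windows of other genes, so whether this is particular to the members was not tested. By position 16 lay inside the member, 13 upstream and 22 downstream. The nearest transcript start was the member's own for 20 of the 51. By gene body, 20 lay inside a different protein-coding gene. The members' own promoter windows held 9 candidates at 6 of the 10 genes, while 8186 of all 19973 protein-coding genes had such a candidate. A further 6 candidates lay in the promoter windows of neighbours only. By kind of place, 15 were in a promoter window (29.4%, against 31.9% of all pooled candidates), 13 in a coding exon (25.5%, against 27.3%), 8 in an intron (15.7%, against 20.1%) and 10 in intergenic sequence (19.6%, against 15.5%).

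**Figure D2:**
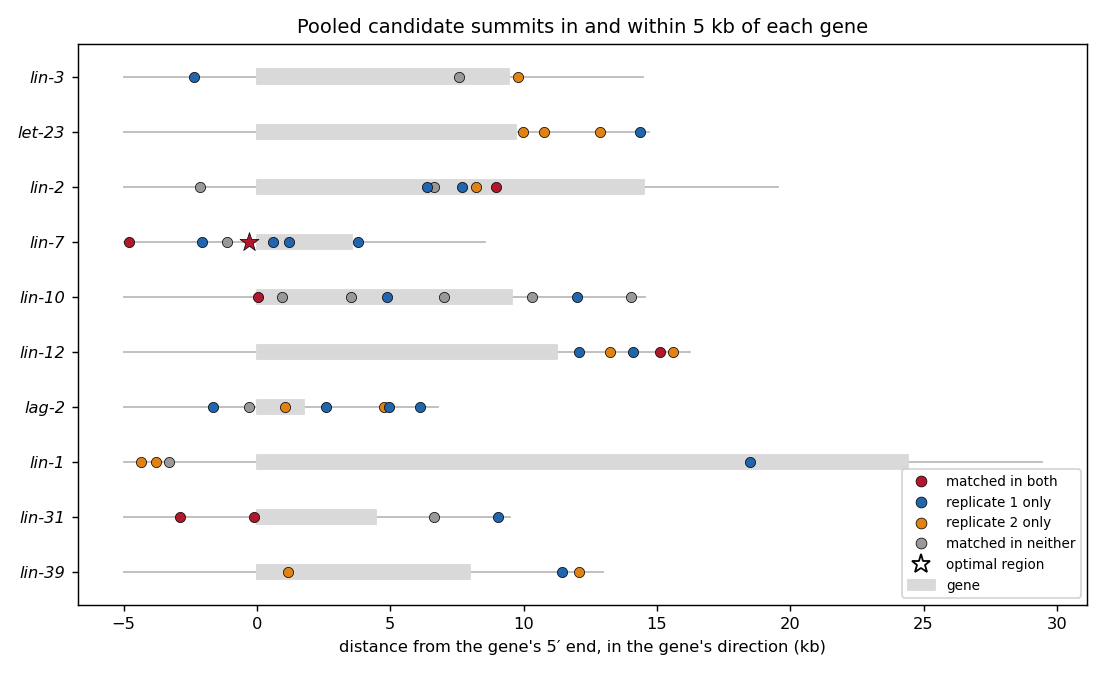
Summits of the 51 pooled candidates along each gene, in kb from the gene's 5′ end and in its direction of transcription; grey boxes are genes, lines the 5 kb on each side, colours the replicate lists with a summit within 100 bp, and the star the optimal region. The star sits just before *lin-7*, while *let-23* and *lin-12* have candidates only past their 3′ ends.

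The ligand and receptor of the inductive signal had weak candidates only. *lin-3* (WBGene00002992, chrIV:11054308-11063768, plus strand) encodes the epidermal growth factor-like ligand of the anchor cell. It had 3 candidates, with pooled signals of 5.90, 8.55 and 14.97. The strongest, rank 4800, lay 330 bp past the gene and 39 bp past the start of *ttr-16*, a transthyretin-like gene, and had a match in replicate 2 (signal 8.57, rank 5484) and none in replicate 1. A replicate 1 region (signal 7.3, rank 6433) did overlap it, with a summit more than 100 bp away. The candidate inside *lin-3*, in exon 9 of 12 of its longest transcript, had no summit match in either replicate. It was overlapped by a replicate 1 region of signal 4.44 and rank 16607. *lin-3* thus had no candidate matched in both lists, and its strongest one was at a neighbour's start.

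*let-23* (WBGene00002299, chrII:9197512-9207213, plus strand) encodes the epidermal growth factor receptor. Its 4 candidates had pooled signals from 6.66 to 7.35 and all lay downstream, 290 to 4648 bp past the gene. The nearest start to each was that of ZK1067.4. The candidate at 7.0 lay 5 bp upstream of that start. The one at 6.66 lay inside ZK1067.4, in exons of a tRNA gene and of the noncoding RNA gene ZK1067.10. Of the 4, 3 were matched in replicate 2 only, with ranks of 18138 to 21262, and 1 in replicate 1 only, with rank 9940. A replicate 1 region (signal 3.02, rank 27662) overlapped the candidate at 7.0 without a summit match. No pooled candidate lay in *let-23* or upstream of it.

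The only optimal region of the set lay in the window of *lin-7*, a gene for the complex that places the receptor, and outside the gene itself. Of the 21 candidates at *lin-2*, *lin-7* and *lin-10*, 4 were matched in both replicates (19.0%, against 25.0% of all pooled candidates). A further 8 had no summit within 100 bp in either list, as had 15.9% of all pooled candidates. Whether these shares differ was not tested. LIN-2, LIN-7 and LIN-10 bind one another and keep LET-23 on the basolateral membrane, where the signal arrives. At *lin-7* the optimal region had a pooled signal of 122.1 and rank 93 of 30000, at the ceiling of the deposited −log10 q-value, 3.54. Its signal was 68.6 in replicate 1, at rank 17, and 52.8 in replicate 2, at rank 284. The replicate summits lay 305 and 277 bp upstream of the gene's 5′ end and the pooled summit 294 bp. The region was thus among the highest ranks of each list.

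The same summit is 38 bp upstream of *elof-1*, which encodes a homologue of a transcription elongation factor and runs in the opposite direction. It is also in the promoter window of Y54G11A.17, a gene annotated on the *lin-7* strand that overlaps its 5′ part and shares its start. Which of the 3 genes, if any, the region serves cannot be told apart by position. The highest signal in the window was lower than that of *lin-7* for 98.4% of protein-coding genes, counting genes with no candidate as lower.

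*lin-7* had 6 further candidates. The strongest of them, 14.26, lay 4805 bp upstream in a coding exon of *agl-1*, held CCGGAA and was matched in both replicates, with ranks of 16440 in replicate 1 and 5679 in replicate 2. The intronic one shown above had 13.02, with a match in replicate 1 only (signal 5.87, rank 10089). A replicate 2 region (signal 6.33, rank 9938) overlapped it, with a summit more than 100 bp away. Another, at 11.67, was 30 bp upstream of an internal transcript start and was matched in replicate 1 (signal 11.5, rank 2405) and not in replicate 2. These 3, like every candidate outside the optimal list, were below its lowest signal.

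*lin-2* (WBGene00002991, chrX:12399517-12414041, minus strand) encodes a membrane-associated guanylate kinase. It had 6 candidates between 5.65 and 11.02, of which 5 were inside the gene. The strongest was the one in intron 12 of 23, matched in both replicates with a signal of 4.63 and rank 15456 in replicate 1 and 5.56 and rank 12650 in replicate 2. It lay 770 bp past an internal transcript start. Around that start, 4 more candidates lay in intron 11, at 8.35, 8.22, 8.83 and 6.82. The 2 at 8.83 and 6.82 fell in exons of the noncoding RNA gene F17E5.4, on the opposite strand. None of these 4 was matched in both lists.

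*lin-10* (WBGene00002999, chromosome I, 8109746 to 8119316, minus strand) encodes a PDZ protein that acts in protein trafficking. It had the most candidates, 8, of which 5 had no summit match in either replicate, against 15.9% of all pooled candidates. Replicate 1 regions of rank 5976 and rank 15511 overlapped candidates among these 5, with summits more than 100 bp away. The strongest pooled candidate, 18.82 at rank 3297, lay in the first exon of *lin-10*, 43 bp past the start. It was matched in both lists, unevenly, with a signal of 4.09 at rank 18822 in replicate 1 and 15.0 at rank 2308 in replicate 2. Among the 50 regions that were not optimal this was the highest.

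The Notch receptor and ligand had no strong region either. *lin-12* (WBGene00003001, chrIII:9060221-9071472, minus strand) encodes the Notch receptor of lateral signalling and of the anchor cell decision. Its 5 candidates, with pooled signals of 9.0 to 18.80, all lay past its 3′ end, in or beside *gst-1* and *cls-2*, which encode a glutathione transferase and a CLASP family microtubule protein. The strongest, rank 3301, was in an intron of *cls-2*, 1987 bp past *lin-12*. It had a summit match in replicate 2 (signal 16.3, rank 2100) and not in replicate 1. The strongest replicate 1 region at *lin-12* (signal 9.02, rank 4056) overlapped it, with a summit more than 100 bp away. The 1 matched in both had a pooled signal of 10.04, with ranks of 6990 in replicate 1 and 22773 in replicate 2. No pooled candidate lay in the gene or upstream of it.

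*lag-2* (WBGene00002246, chrV:3188343-3190115, plus strand) encodes a DSL family Notch ligand. It is the shortest of the 10 genes, at 1773 bp, and had 7 candidates between 5.65 and 8.38, the highest density of the set at 5.95 per 10 kb. The strongest lay in exon 3 of 3 and was matched in replicate 2 (signal 8.31, rank 5797) and not in replicate 1. The candidate in its own promoter window, 285 bp upstream with a pooled signal of 8.21, was matched in neither.

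The 3 transcription factor genes had low candidates throughout. *lin-1* (WBGene00002990, chrIV:2275861-2300286, minus strand) encodes an ETS factor at the end of the Ras cascade and is the longest member, at 24426 bp. Its 4 candidates, 5.55 to 6.84, gave the lowest density, 1.16 per 10 kb, and the lowest maximum of the set. A single one lay inside the gene, in intron 2 of 5, at 6.57.

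*lin-31* (WBGene00003017, chrII:3982549-3987029, plus strand) encodes a forkhead factor that partners LIN-1. Its strongest candidate, 9.34 at rank 12542, lay 112 bp upstream of its start and was matched in both lists. Its signal was 3.34 at rank 24632 in replicate 1 and 5.52 at rank 12814 in replicate 2. A further candidate matched in both lay 2900 bp upstream, at 8.01. Both replicates therefore had regions upstream of *lin-31*, all of low rank.

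*lin-39* (WBGene00003024, chrIII:7528641-7536632, minus strand) encodes the Hox factor that keeps vulval precursor cells competent. It had 3 candidates, at 6.25, 7.22 and 9.39. The one at 7.22, which holds TAATTA, lay inside the gene, 654 bp upstream of an internal transcript start, and was matched in replicate 2 (signal 4.38, rank 18561) and not in replicate 1. The strongest lay 3467 bp downstream and was matched in replicate 1 only (signal 5.72, rank 10619).

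The 5 kb edge fell close to several optimal regions. Just inside it were candidates at 4542 bp of *lin-31* (7.60), 4648 bp of *let-23* (6.66) and 4805 bp of *lin-7* (14.26). Just outside were one at 5093 bp of *lin-31* (6.25), an optimal region at 5243 bp upstream of *lin-10* (70.2, rank 401) and one at 5303 bp of *lin-12* (15.01). Within 10 kb, 5 of the 10 genes had an optimal summit, against 34.8% of all protein-coding genes.

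The added optimal regions were at neighbours. The region before *lin-10* lay 1242 bp upstream of *mau-2*, which encodes a cohesin loading factor. At 5496 bp past *lin-2* one of signal 73.04 lay 237 bp upstream of F17E5.2. Past *lin-12* there were 2, the nearer at 6164 bp with a signal of 86.42, in the promoter windows of R107.5 and *cls-2*. At 7766 bp past *lin-39* one of 40.64 lay in those of *cux-7*, C07H6.2 and *lig-4*, a DNA ligase gene, and a further one lay 8733 bp upstream of *lin-7* at *agl-1* and *pfs-2* (29.18). None of these 6 had a member's start as its nearest.

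For the remaining genes the nearest optimal summit was farther away. It was 17912 bp upstream of *lin-3*, at *fkb-1*, and over 50 kb from 4 genes. These were *lin-31* (51538 bp), *lin-1* (56227 bp), *let-23* (67033 bp) and *lag-2* (125427 bp). The median distance of the 10 genes was 12839 bp, against 18919 bp over all protein-coding genes.

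**Figure D3:**
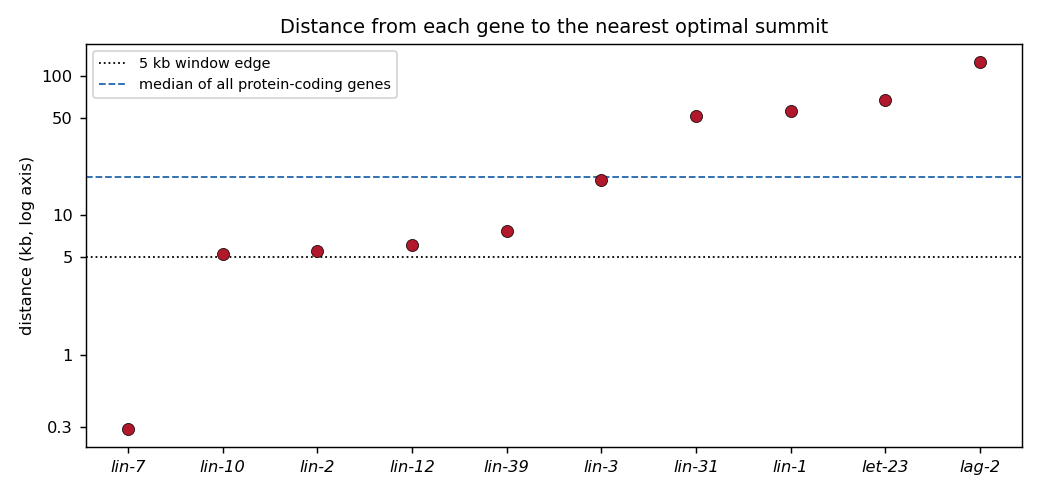
Distance from each gene to the nearest optimal summit, in kb on a log axis, 1 point per gene; the dotted line is the 5 kb window edge and the dashed line the median of all protein-coding genes, 18919 bp. *lin-7* alone lies below the edge, 4 genes lie just above it, and 4 lie beyond 50 kb.

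Other genes of the same pathways were taken from 3 lists. Of 55 annotated genes, 25 had an optimal summit in the gene or within 5 kb (45.5%, Wilson 95% interval 33.0 to 58.5%), against 23.3% of all protein-coding genes. The lists were not tested against the members or against other genes, and the intervals cover the counting of genes only. The interval contained the share of all protein-coding genes for the Ras cascade and Notch lists, and lay above it for the synMuv list. The list with the highest count, 12 of the 25, was that of the synMuv genes, which oppose induction. Many of them act in chromatin and keep *lin-3* off outside its normal source.

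In the synMuv list 12 of 18 genes (66.7%) had an optimal summit in that window and 9 of 18 had one in their promoter window, against 8.39% of all protein-coding genes. The strongest was at *hpl-2*, a heterochromatin protein gene, with a signal of 329.6, but 3730 bp upstream, where *tasp-1* and K01G5.10 have their promoter windows. *lin-54*, a DNA-binding subunit of the DREAM complex, shared a region of 170.3 with *rpl-12*. *lin-53*, a histone-binding protein gene, had 113.6 at 229 bp upstream, also in the promoter window of *nra-2*. *lin-9*, another DREAM subunit gene, had 100.9 at 159 bp upstream.

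In the Ras cascade list 7 of 19 genes (36.8%) had an optimal summit in the window. The Wilson interval, 19.1 to 59.0%, contained the 23.3% of all protein-coding genes. Of the 19, 1 had an optimal summit in its promoter window, against 8.39% of all protein-coding genes. *mpk-1*, the MAP kinase gene, had one in an intron (63.84), ranked 7202 in replicate 1 and 331 in replicate 2. *let-60*, the Ras gene, had one 1495 bp upstream (44.77), where the nearest start was that of ZK792.12. *sur-2*, a Mediator subunit gene, had one of 42.49 in the promoter windows of *uev-1* and others. *eor-2* had one of 41.42 at *rbc-1* and one 116 bp upstream of its own start (36.45).

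In the Notch list 6 of 18 genes (33.3%) had an optimal summit in the window. The Wilson interval, 16.3 to 56.3%, also contained the 23.3% of all protein-coding genes. Of the 18, 1 had an optimal summit in its promoter window, against 8.39% of all protein-coding genes. The strongest was at *lst-4* (83.51), in the promoter window of *ccar-1*. *adm-4*, a metalloprotease gene, had one of 59.25 and *lst-1*, a lateral signal target, one of 53.9, both downstream. The nearest starts to these were those of ZK154.6 and T22A3.12. *sel-10*, which encodes an F-box protein that turns over LIN-12, had one 185 bp upstream (36.06). *lag-1*, the DNA-binding effector of Notch, had one in an intron, 1870 bp past a start (35.72), and is named here after its value was seen.

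**Figure D4:**
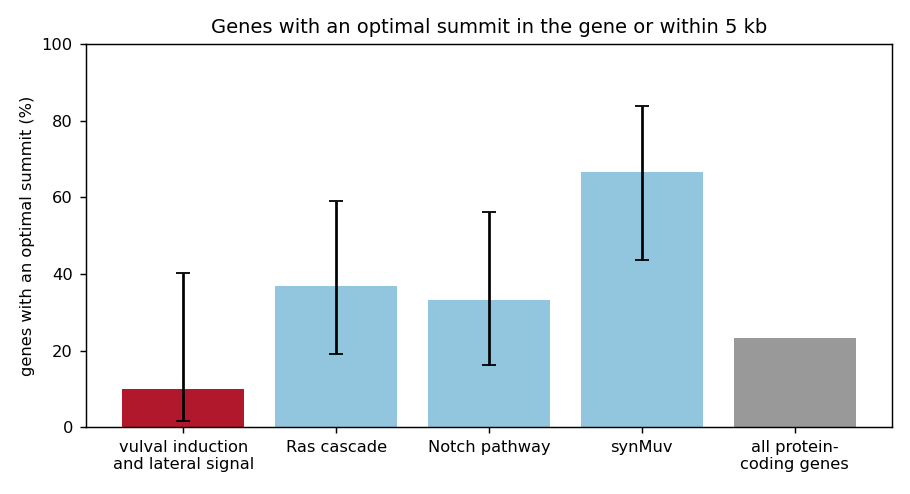
Percent of genes with an optimal summit in the gene or within 5 kb, for the 10 vulval induction and lateral signalling genes, 3 lists of other pathway genes and all 19973 protein-coding genes; bars start at 0 and lines are Wilson 95% intervals over genes. The 10 genes stand at 10%, the lists at 36.8%, 33.3% and 66.7%, and all genes at 23.3%.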

How the data were processed

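ChIP-seq region lists on ce11 were used, 1 for each of 2 replicates, 1 from pooled reads and the optimal list. Per the deposited notes, the authors called regions against a control alignment and derived the optimal list by the irreproducible discovery rate procedure. Neither the aligner, the caller nor any threshold is stated. The deposited signal value and −log10 q-value of each region are the authors'. Each input list held 30000 regions and includes background. The optimal regions were the top 1917 of the pooled list by signal. The ce10 lists were not used.

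A summit was the start plus the deposited offset, counted from 1, and summits matched at 100 bp or less. Places were assigned in the order promoter window, coding exon, UTR, noncoding exon, intron and intergenic. Motifs were searched within 50 bp of the summit. Named were all members, their optimal regions and strongest candidates, the genes beside them, and the 4 genes of highest signal from each pathway list; *sur-8* and *lst-3*, 2 of 57 names, had no match. Members, lists and settings were chosen with earlier results of these data known. The sequences shown, the range of gene length and the inverted repeat were chosen after values were seen. Window counting and matching were tested on simulated data. Alternatives were the window, overlap, gene assignment, promoter window, matching distance, sequence window, stronger 50% of the optimal list and each replicate left out. Python 3.11.15, numpy 2.4.6, pandas 2.3.3, scipy 1.17.1 and matplotlib 3.10.9 were used.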

Additional observations from a re-analysis of the deposited data

How the results depend on the processing

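The count of members with an optimal region was 1, at *lin-7*, with a 2 kb window, with any overlap, in the stronger 50% of the optimal list, and with either replicate left out, when the 1917 regions of highest signal of the other replicate stood in. Without replicate 1 and without replicate 2 the other pathway genes numbered 28 and 25, and the optimal share of candidates was 2.08% and 2%, against 1.96%. The count of members was 0 in the gene body only and 0 with the nearest transcript start only, which gives the region to *elof-1*, and 5 with a 10 kb window. The count of optimal regions was 0, 0 and 7 in those settings, and of regions matched in both replicates 0, 0 and 6. The optimal share of candidates was 0% in the gene body (0 of 16) and 0% with the nearest start (0 of 20), and it was 3.45% within 2 kb (1 of 29) and 8.43% within 10 kb (7 of 83), the last above the 6.39% of all pooled candidates. The other pathway genes numbered 4 in the gene body, 15 with the nearest start and 12 in the stronger 50%, against 25. Other promoter windows left the count of members with an optimal region at the promoter as it was. Other matching distances and sequence windows were applied to the optimal region only, and left its results as they were. The candidates matched in both lists were not recounted. At *lin-10*, *lin-12* and *lin-31* each of them had 1 replicate summit more than 50 bp from the pooled one, so those matches rest on the 100 bp limit. The count matched in both replicates has no value with a replicate left out. No paired analysis was possible because there is 1 group. Depth is unknown, so weak binding in few cells may be missed.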

Other observations

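The replicate lists held further regions at these genes. Replicate 1 had 50 candidates in the 10 windows and replicate 2 had 48. Of these, 24 in replicate 1 (48.0%, against 47.3% of its whole list) and 28 in replicate 2 (58.3%, against 43.5%) had no pooled candidate within 100 bp. A replicate 2 candidate lay within 100 bp of 7 of the 50 in replicate 1 (14%, against 24.6% of the whole replicate 1 list).

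Some of these unshared regions lay near transcript starts, with no pooled candidate within 100 bp. *let-23* had a replicate 1 candidate 116 bp upstream of its start, with a signal of 3.30 and rank 25007. *lin-39* had a replicate 2 candidate 126 bp upstream of the gene, at 4.72 and rank 16664. *lin-12* had replicate 2 candidates 568 bp upstream (4.54, rank 17627) and 157 bp past its start (3.14, rank 28669). All 4 are low in their lists, and none had a candidate of the other replicate within 100 bp.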
